A study of Mus musculus with 2 samples.

Results

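The genes described here are the keratins, the claudins with occludin, the desmosome genes and EPCAM, which together build the filaments and cell contacts of epithelial cells. They were chosen by symbol alone, as every keratin, claudin, desmocollin, desmoglein and plakophilin gene of the table plus DSP, JUP, OCLN and EPCAM, without pseudogenes. The rule found 94 genes among 57011 gene labels, and 91 of them had a value of their own. The other 3, CLDN7, CLDN12 and KRT222, were listed only in loci merged with other genes. RNA had been sequenced from a pair of patient-derived xenografts, human tumors that are kept growing in mice. Both are labelled as neuroendocrine tumors of gastroenteropancreatic type, were passaged in athymic nude mice of the strain Foxn1nu, and carry no treatment on their labels. The primary group is a xenograft of a primary tumor located in the flank, and the metastatic group is a xenograft of a metastatic tumor located in the peritoneal cavity. Each group is 1 library from dissociated tumor, so the groups have no replicates, no test was possible, and the origin of the tumor and the place of the graft cannot be told apart.

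Keratins are the intermediate filament proteins of epithelial cells, and each filament pairs a type I with a type II keratin. KRT8 and KRT18 are the pair of simple epithelia such as gut, pancreas and liver, and stratified epithelia use other pairs. Claudins and occludin span the membrane at tight junctions, where claudins either seal the space between cells or form ion-selective pores through it. Desmosomes hold cells together through the cadherins desmoglein and desmocollin, which plakoglobin (JUP), plakophilins and desmoplakin (DSP) link to the keratin filaments. EPCAM is a surface protein of epithelial cells that binds claudin-7. Keratins are routinely stained to show that a neuroendocrine tumor is epithelial.

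Values are FPKM as deposited, a level corrected for transcript length, so levels can be set side by side between genes. Where a pair of values is given for a gene, the primary library comes first and the metastatic library second. Log2 ratios are metastatic over primary after adding 1 FPKM to each value, which understates differences of low genes. The primary column summed to 784987 FPKM and the metastatic column to 885319, and read depth is unknown. Rescaling both to the same sum shifts the log2 ratio of abundant genes by -0.17, and moves the median over all expressed entries from 0.03 to -0.12. With dissociated tissue, fewer cells of a type and less RNA per cell cannot be told apart.

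The diagnosis on the labels was set against neuroendocrine markers. Of 9 such markers with a value of their own, 6 were expressed, at 1 FPKM or more in a library. In the metastatic library 3 of these passed 2-fold downwards and 1 upwards, with a median log2 ratio of -1.21. Over all expressed entries, 9.35% were lower and 9.22% higher by as much. The lower genes were PCSK1, at 19.9 and 2.74 FPKM, INSM1, at 3.54 and 0.271, and SCG2, at 2.62 and 0.340. CHGB stood at 1.64 and 0.336 FPKM. INSM1, SCG2 and CHGB reached 1 FPKM in the primary library only, so their difference is partly given by that filter. DDC, at 48.1 and 103 FPKM, was the higher gene, though not past 2-fold after rescaling. SYP stood at 1.63 and 1.96 FPKM, while CHGA was at 0 on each of its 2 rows. Zeros of genes on 2 rows are described with occludin.

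Of the 91 genes with a value of their own, 26 reached 1 FPKM in at least 1 library, 25 lay above 0 but under 1 FPKM in both, and 40 were listed at 0 in both. In the metastatic library, 5 of the 26 were higher by 2-fold or more and 4 were lower by as much. Over all 13811 entries that passed the same filter, 9.22% were higher and 9.35% lower, or 18.6% in either direction. After rescaling to the same sum, 4 of the 26 were higher and 5 lower, beside 7.24% and 12.7% of all entries, or 19.9% in either direction. KRT15, KRT79, KRT80, KRT86, CLDN2 and CLDN22 passed the filter in 1 library only, so a difference in them is partly given by the filter. Among the 20 genes at 1 FPKM or more in both libraries, KRT8 and CLDN4 passed 2-fold upwards and KRT7, KRT17 and CLDN5 downwards, beside 7.37% and 6.57% of 11736 such entries, or 13.9% in either direction. The median log2 ratio was 0.36 over the 26 genes and 0.24 over the 20, beside 0.03 and 0.05 over all entries of each filter. These counts describe a single pair of libraries.

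**Figure D1:**
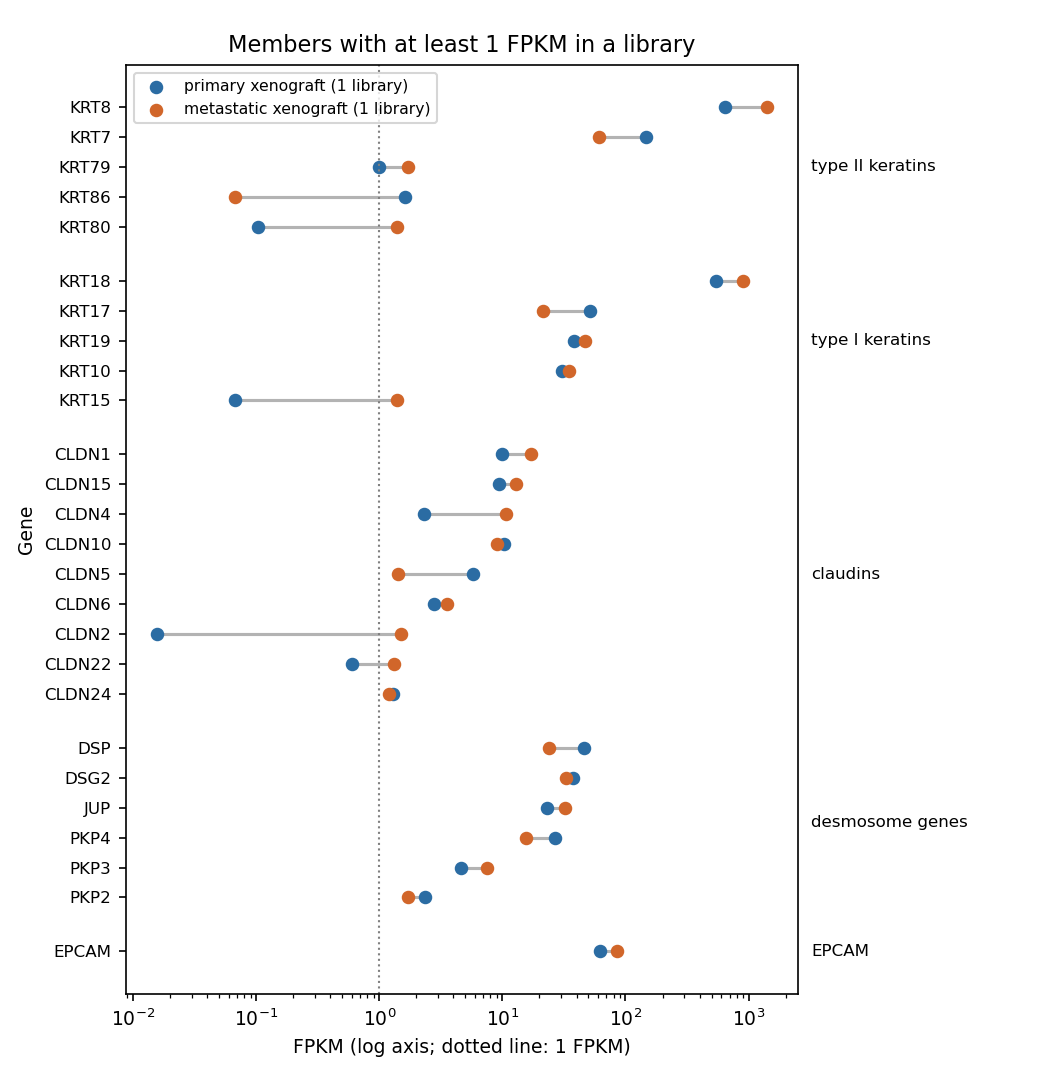
FPKM of the 26 genes that reached 1 FPKM in a library, on a log axis, with 1 point for the primary and 1 for the metastatic xenograft and a line joining them. KRT8 and KRT18 stand far to the right of all other members in both libraries, and CLDN2, KRT15, KRT80 and KRT86 have the longest lines because their lower value is near 0.

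The simple-epithelium pair KRT8 and KRT18 made up most keratin RNA in both tumors. KRT8, a type II keratin, had 649 FPKM in the primary library and 1423 in the metastatic library, a log2 ratio of 1.13. By level it ranked 163 of the 13811 expressed entries in the primary library and 94 in the metastatic library. KRT18, its type I partner, stood at 541 and 904 FPKM, a log2 ratio of 0.74, and ranked 189 and 151. Both genes were thus higher in the metastatic library, KRT8 by more, and the ratio of KRT8 to KRT18 went from 1.20 to 1.57. The KRT8 difference lies at the 2-fold limit, since its log2 ratio was 0.96 once both libraries were rescaled to the same sum. The human genome holds many processed copies of both genes, which could take or give reads. The 49 KRT8 pseudogenes summed to 1.46% and 0.89% of the KRT8 level, and the 65 KRT18 pseudogenes to 0.37% and 0.28% of KRT18.

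KRT7 and KRT17 differed in the opposite direction. KRT7, a type II keratin of ducts and other simple epithelia, stood at 146 and 61.2 FPKM, a log2 ratio of -1.24. KRT17, a type I keratin of basal and injured epithelia, stood at 51.6 and 21.3 FPKM, also a log2 ratio of -1.24. Both stayed at least 2-fold lower after rescaling, at -1.42 and -1.41. KRT17 has near-identical copies among its pseudogenes and relatives, so its value is less certain than that of KRT7. KRT19, a type I keratin that pairs with KRT7 or KRT8 in ducts, did not follow KRT7, at 38.1 and 46.9 FPKM. KRT17 thus stood above KRT19 in the primary library, at 1.36 times its level, and below it in the metastatic library, at 0.45 times.

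Shares within a library do not depend on how the library was scaled, and they showed the same difference in makeup. KRT8 and KRT18 together held 81.5% of the summed keratin FPKM in the primary library and 93.2% in the metastatic library. KRT8 alone held 44.5% and 57.0%, and KRT18 37.1% and 36.2%. KRT7 and KRT17 together held 13.6% in the primary library and 3.30% in the metastatic library, while KRT19 held 2.61% and 1.88%. KRT8 stood at 4.44 times the level of KRT7 in the primary library and at 23.3 times in the metastatic library. All type II keratins summed to 798 and 1488 FPKM and all type I keratins to 661 and 1008, so the ratio of type II to type I was 1.21 and 1.48.

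**Figure D2:**
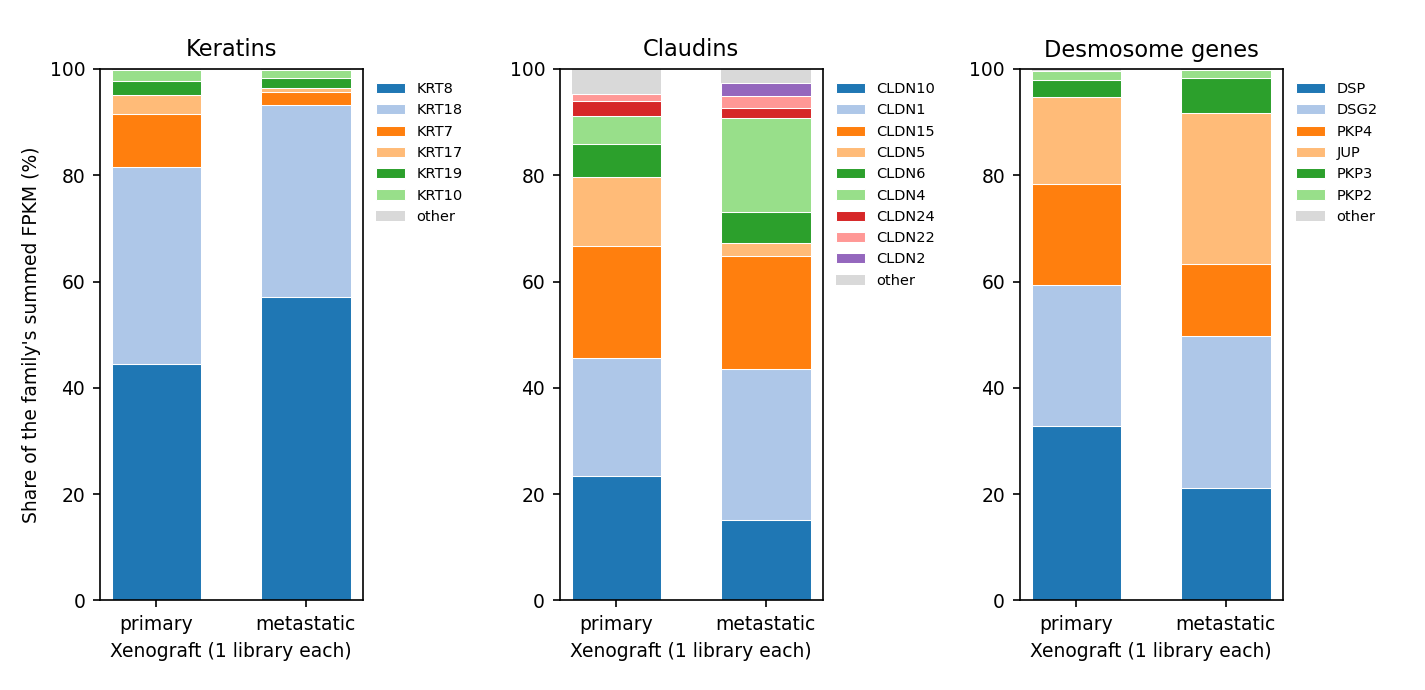
Share of the summed FPKM of keratins, claudins and desmosome genes held by each gene, in percent, with 1 bar for each library and genes under 1% in both libraries shown as other. KRT7 narrows from 10.02% in the primary to 2.45% in the metastatic bar, CLDN4 widens from 5.19% to 17.6%, and DSP narrows from 32.7% to 21.1% while JUP widens from 16.3% to 28.3%.

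Keratins of stratified epithelium were mostly near 0, apart from KRT17, KRT10 and KRT15. KRT10, the type I keratin of the upper epidermis, stood at 30.2 and 34.8 FPKM, while its epidermal partner KRT1 was listed at 0 in both libraries. KRT15, a type I keratin of basal cells, stood at 0.0669 and 1.40 FPKM. The basal pair KRT5 and KRT14 stood at 0 and 0.112 FPKM and at 0.0828 and 0.0588. KRT6A, a usual partner of KRT17 in skin, stood at 0.142 and 0.0200 FPKM, and KRT16 at 0.178 and 0.179. KRT17, KRT10 and KRT15 were therefore listed with little or none of the type II partners they have in skin. Of 17 stratified keratins, 9 were at 0 in both libraries, 1 of them on several rows. These groups of keratins were formed after the values were seen.

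Genes of cornified skin were not detected beside these keratins at 1 FPKM. Of 15 genes of the cornified envelope and its processing, among them IVL, LOR and FLG, 0 reached 1 FPKM and 11 were listed at 0 in both libraries, 2 of these on several rows. The list also holds the basal regulator TP63, which stood at 0.0199 and 0.0187 FPKM. Of 8 keratinocyte markers, 2 were expressed, namely KRT10 and SFN. SFN stood at 4.19 and 9.68 FPKM, a log2 ratio of 1.04, though not past 2-fold after rescaling. Over all expressed entries, 9.22% were higher by 2-fold or more. Of 17 keratins of the hair shaft, 14 were at 0 in both libraries and only KRT86 reached 1 FPKM, at 1.63 and 0.0669. Of the 14 zeros, 7 belong to symbols on 2 rows and may not show absence. KRT86 has the near-identical copies KRT81 and KRT83, at 0.0732 and 0.0488 FPKM and at 0.0252 and 0, so its value is uncertain. Of 9 keratins of the hair root sheath, 0 reached 1 FPKM. The remaining type II keratins KRT80 and KRT79 stood at 0.103 and 1.39 FPKM and at 0.995 and 1.70.

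Keratins are also made by other cells that a xenograft could hold, and the markers of those cells are given here for that reason. Host cells of a xenograft are mouse cells, while the build named for these values is human, and how mouse reads were handled is not stated. Low marker values, here and in the endothelial, fibroblast and leukocyte lists below, may therefore not show how many host cells were present. Hepatocytes make KRT8 and KRT18 but no KRT7 or KRT19. The 7 hepatocyte markers summed to 300.0 and 718 FPKM, with 6 of 7 expressed. Of these, APOA1, APOA2 and FGB were higher by 2-fold or more in the metastatic library, and CPS1 was lower, at 31.7 and 2.96 FPKM. Over all expressed entries, 9.22% were higher and 9.35% lower by as much. APOA1, at 0.289 and 11.2 FPKM, and APOA2, at 0 and 8.16, reached 1 FPKM in the metastatic library only. Their difference is therefore partly given by the filter. FGB, at 111 and 499 FPKM, and SERPINA1, at 137 and 162, made up most of the sums. Albumin (ALB) stood at 19.01 and 34.1 FPKM. Of 7 duct markers, 4 were expressed with a value of their own, namely KRT7, KRT19, the transcription factor SOX9 at 25.7 and 11.9 FPKM, and SPP1 at 7.26 and 2.91. Among the other duct markers, the chloride channel CFTR stood at 0.0134 FPKM in both libraries and MUC1 was listed only in a merged locus. Mesothelium, which lines the peritoneal cavity, also makes simple keratins. Its 7 markers summed to 1.92 and 2.86 FPKM, with WT1 at 0.0477 and 2.65, UPK3B at 1.78 and 0, MSLN at 0.0487 and 0.1203, and CALB2, LRRN4 and ITLN1 at 0 in both. UPK3B and CALB2 stand on 2 rows, so their zeros may not show absence. The part of these cells in the keratin values was not tested.

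Among claudins, 9 of 22 with a value of their own reached 1 FPKM, and none came near the level of KRT8. CLDN1, a sealing claudin, stood at 9.89 and 17.1 FPKM. CLDN10 and CLDN15, both known to form pores, stood at 10.4 and 9.10 FPKM and at 9.39 and 12.9. These 3 genes were within 2-fold and held 66.8% of the summed claudin FPKM in the primary library and 64.9% in the metastatic library. CLDN6, a claudin of embryonic epithelia, stood at 2.76 and 3.57 FPKM. The neighbouring and near-identical CLDN22 and CLDN24 stood at 0.602 and 1.31 FPKM and at 1.28 and 1.19, with reads that could be split between them.

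CLDN4 and CLDN2 were higher and CLDN5 lower in the metastatic library. CLDN4, a sealing claudin of gut and pancreas, stood at 2.30 and 10.6 FPKM, a log2 ratio of 1.81, or 1.72 after rescaling. Its close relative CLDN3 stayed under 1 FPKM, at 0.315 and 0.197. CLDN2, which forms a pore for cations and water, stood at 0.0155 and 1.504 FPKM. These 2 values were in the ratio 1 to 97 within 0.01%, so the primary value may be a single step of the scale, and the size of the difference is poorly known. CLDN18, of stomach and lung, stood at 0.0139 and 0.249 FPKM.

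CLDN5, the main claudin of blood vessels that some epithelia also make, stood at 5.73 and 1.41 FPKM, a log2 ratio of -1.48. CLDN4 thus stood at 0.40 times the level of CLDN5 in the primary and at 7.54 times in the metastatic library. Of 10 endothelial markers, 2 were expressed. EGFL7 stood at 19.1 and 1.58 FPKM and ESAM at 1.55 and 1.18, and the 10 summed to 21.4 and 4.48, mostly EGFL7. The low members TIE1 and VWF stood higher in the metastatic library, at 0.0992 and 0.859 FPKM and at 0.259 and 0.505, as did EMCN, ERG and TEK, all under 0.12 FPKM. The defining markers PECAM1 and CDH5 stood at 0.237 and 0.0833 FPKM and at 0.152 and 0.0144, and KDR was listed at 0 in both libraries. CLDN5 was 24.1 times as high as PECAM1 in the primary library and 16.9 times in the metastatic library. PECAM1 lay under 1 FPKM in both, so the size of these ratios is poorly known. Whether endothelial cells gave part of the CLDN5 value was not tested.

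Occludin (OCLN) was listed at 0.00867 FPKM in the primary library and 0 in the metastatic library, which may not be its true level. Its symbol stands on 2 rows of the table, as do 11 other members, KRT20, KRT23 and CLDN23 among them, and 0 of these 12 reached 1 FPKM. Symbols on several rows were often at 0 in general. Of 13660 symbols that stand on 1 row and match a mouse protein-coding gene, 67.6% reached 1 FPKM and 10.2% were at 0 in both libraries. Of 768 such symbols on several rows, 15.4% reached 1 FPKM and 66.5% were at 0. LDHA, RPL7A and RPS25, which nearly all cells express, stand on 2 rows each and are at 0. The zeros of OCLN and of KRT20, a keratin of gut epithelium, therefore cannot be read as absence. Of the members with no value of their own, CLDN7 lies in a locus with CTDNEP1 and GABARAP at 234 and 272 FPKM, CLDN12 in a locus with CDK14 and GTPBP10 at 57.1 and 69.1, and KRT222 in a locus with SMARCE1 at 31.5 and 36.7.

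All 6 expressed desmosome genes were within 2-fold as deposited, and DSP was the furthest apart. Of all entries at 1 FPKM or more in both libraries, as these 6 were, 13.9% passed 2-fold in either direction. With so few genes, a count of 0 lies close to that share. DSP, the desmoplakin that anchors keratin filaments, stood at 45.8 and 24.1 FPKM, a log2 ratio of -0.90, or -1.07 after rescaling, which is past 2-fold. JUP, the plakoglobin of desmosomes and adherens junctions, stood at 22.8 and 32.5 FPKM, a log2 ratio of 0.49. DSP was thus at 2.004 times the level of JUP in the primary library and at 0.74 times in the metastatic library. The desmoglein DSG2, the form found in simple epithelia, stood at 37.1 and 32.8 FPKM. DSC2, the desmocollin usually found with DSG2, stood at only 0.405 and 0.230 FPKM, so that DSG2 was 91.7 times as high in the primary library and 142 times in the metastatic library. DSC2 stands on 1 row of the table. It lay under 1 FPKM in both libraries, so the size of these ratios and their difference are poorly known.

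Plakophilins went both ways. PKP4, which is found mainly at adherens junctions, stood at 26.7 and 15.6 FPKM, PKP3 at 4.64 and 7.54, and PKP2 at 2.37 and 1.71. PKP4 was 5.75 times as high as PKP3 in the primary library and 2.07 times in the metastatic library. The desmosomal cadherins of stratified epithelium, DSG1, DSG3, DSG4, DSC1 and DSC3, and the plakophilin PKP1 were all under 0.1 FPKM in both libraries, with DSG4 at 0.00974 and 0.0292 FPKM. EPCAM stood at 62.5 and 85.5 FPKM, a log2 ratio of 0.45. The divergent transcript beside it, EPCAM-DT, stood at 1.65 and 1.04 FPKM, near the limit of 1 FPKM. Both EPCAM and EPCAM-DT were within 2-fold.

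**Figure D3:**
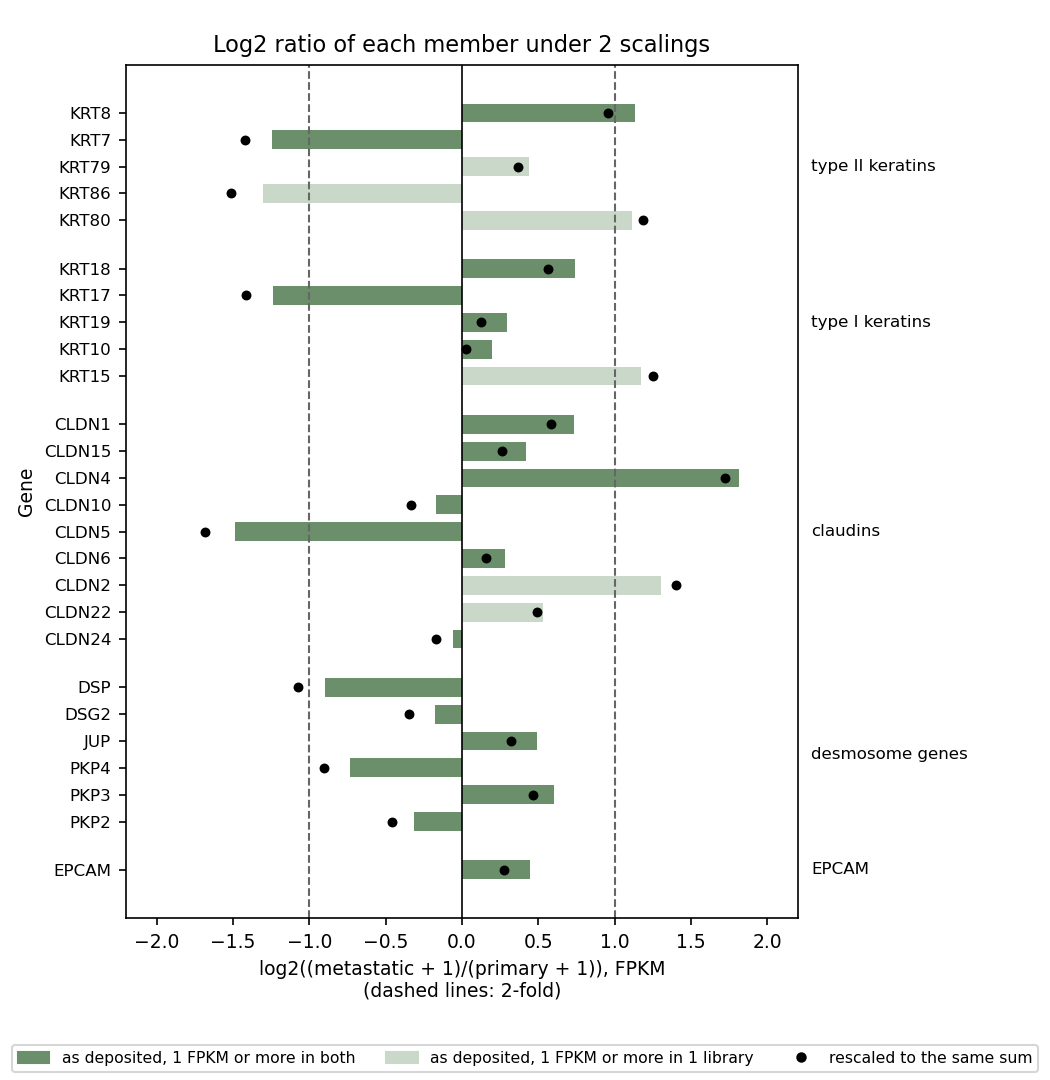
Log2 ratio of metastatic over primary for the 26 expressed genes, as bars for the deposited values and as points after both libraries were rescaled to the same sum, with dashed lines at 2-fold. Rescaling takes KRT8 from 1.13 to 0.96, inside the lines, and DSP from -0.90 to -1.07, outside them, while CLDN4, CLDN5, KRT7 and KRT17 stay outside.

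The partners of these genes at the junctions were mostly within 2-fold. Over all expressed entries, 18.6% lay past 2-fold in either direction, which is the share to set beside this and the following lists. Of 28 tight junction partners, 20 were expressed with a value of their own, and none passed 2-fold upwards while 3 passed it downwards, with a median log2 ratio of -0.40. After rescaling 4 passed it downwards, and with 0.1 FPKM added in place of 1, 1 gene passed it upwards and 5 downwards. The 3 were the junction plaque proteins cingulin (CGN), at 16.2 and 5.56 FPKM, and its relative CGNL1, at 12.5 and 3.09, and the adhesion molecule JAM3, at 25.6 and 11.8. The polarity protein gene CRB3 stood at 1.49 and 3.76 FPKM and the angiomotins AMOTL1 and AMOT at 3.18 and 1.29 and at 2.182 and 0.870. The scaffold TJP1, known as ZO-1, stood at 0.493 and 0.380 FPKM but lies on 2 rows, and F11R was listed only in a merged locus. CLDN4 and cingulin therefore differed in opposite directions between the libraries.

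With 1 FPKM added, adherens junction genes were all within 2-fold under both scalings, with a median of -0.33 over 11 expressed genes. With 0.1 FPKM added, 1 was higher and 1 lower. E-cadherin (CDH1), the epithelial cadherin, stood at 4.96 and 10.1 FPKM, a log2 ratio of 0.90, and N-cadherin (CDH2) at 55.3 and 41.3. N-cadherin was thus 11.2 times as high as E-cadherin in the primary library and 4.09 times in the metastatic library. The catenins CTNNA1 and CTNNB1 stood at 220 and 136 FPKM and at 139 and 101.1, VEZT at 36.7 and 23.1, and NECTIN3 at 2.13 and 0.961. EPCAM stood above E-cadherin in both libraries, at 12.6 and 8.48 times its level.

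Among 8 expressed linkers of desmosomes and filaments, TCHP and SYNM passed 2-fold upwards and PPL downwards, and the median was -0.06. SYNM lay at the limit and dropped below it after rescaling. The keratin-binding TCHP stood at 5.52 and 17.8 FPKM and synemin (SYNM), which joins vimentin and desmin filaments, at 5.84 and 12.7. Periplakin (PPL) stood at 2.22 and 0.358 FPKM, so it reached 1 FPKM in the primary library only. Its relative envoplakin (EVPL) stood at 0.259 and 0.165. Plectin (PLEC), which ties filaments to junctions, stood at 23.6 and 15.1 FPKM, and the protease inhibitor CSTA at 4.201 and 2.88. Of 8 expressed hemidesmosome genes, with a median of -0.32, 1 passed 2-fold upwards and 1 downwards. The higher gene was CD151, at 85.3 and 193 FPKM, though not past 2-fold after rescaling. The laminin chain LAMB3 stood at 5.46 and 4.47 FPKM. The integrins ITGB4 and ITGA6 stood at 2.15 and 0.933 FPKM and at 28.5 and 21.4. A hemidesmosomal collagen, COL17A1, stayed under 1 FPKM.

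Among other intermediate filaments, vimentin stood above every keratin. LMNA, at 388 and 360 FPKM, stood below KRT8 and KRT18 and above the other keratins, and the rest of the list stood far below KRT8. Vimentin (VIM), the filament of mesenchymal cells and of many cultured or invasive epithelial cells, stood at 4745 and 4598 FPKM. It was 7.31 times as high as KRT8 in the primary library and 3.23 times in the metastatic library. The list of other intermediate filaments had 13 expressed genes and a median of 0.09, with NEFM, DES and SYNM past 2-fold upwards and NEFH downwards. After rescaling 2 were higher and 2 lower. The neurofilament NEFM stood at 5.35 and 25.2 FPKM, NEFH at 2.09 and 0.446 and NEFL at 11.8 and 5.84. NEFH reached 1 FPKM in the primary library only. Desmin (DES), of muscle, stood at 1.40 and 7.82 FPKM and nestin (NES) at 30.8 and 52.1. Of the 8 fibroblast markers with a value of their own, which accompany vimentin in stroma, 6 were expressed and they summed to 521 and 158 FPKM. Of the 6, 5 were at least 2-fold lower in the metastatic library, beside 9.35% of all expressed entries. DCN was higher, at 0.370 and 2.89 FPKM. DCN and COL6A3, the latter at 2.64 and 0.267 FPKM, each reached 1 FPKM in 1 library only. Their difference is therefore partly given by the filter. COL1A2 alone, at 474 and 149 FPKM, made up most of the sum. LUM stood at 0 and 0.0859 FPKM and THY1 at 0.0174 and 0.0129. The part of fibroblasts in the vimentin value was not tested. Leukocyte markers were mostly low, with 2 of 6 expressed, CSF1R at 1.06 and 0.243 FPKM and LYZ at 2.72 and 11.97. LYZ was thus higher by 2-fold or more in the metastatic library, beside 9.22% of all expressed entries. PTPRC stood at 0.111 and 0.0403 FPKM. AIF1 was at 0 but stands on 6 rows, so its zero may not show absence.

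Several genes in the list of epithelial regulators were near 0. GRHL2 stood at 0.0603 and 0.0258 FPKM, the splicing factor ESRP1 at 0.0262 and 0.0523, EHF at 0.149 and 0.117, and RAB25 at 0.250 and 0.178. Each of these 4 stands on 1 row of the table. Of 18 regulators in the list, 7 were expressed with a value of their own, with a median log2 ratio of -0.32. The transcription factor ELF3 stood at 62.1 and 17.1 FPKM and ESRP2, the relative of ESRP1, at 2.76 and 7.49. The protease ST14, GRHL1 and KLF5 stood at 3.22 and 1.67 FPKM, at 1.0203 and 0.608 and at 5.18 and 3.94. The libraries thus held much KRT8, KRT18 and EPCAM RNA beside little of CLDN3, DSC2, GRHL2 and ESRP1. These low genes were picked after their values were seen. Others of the same families or list, such as CLDN4, DSG2, ELF3 and ESRP2, were expressed in both libraries.

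**Figure D4:**
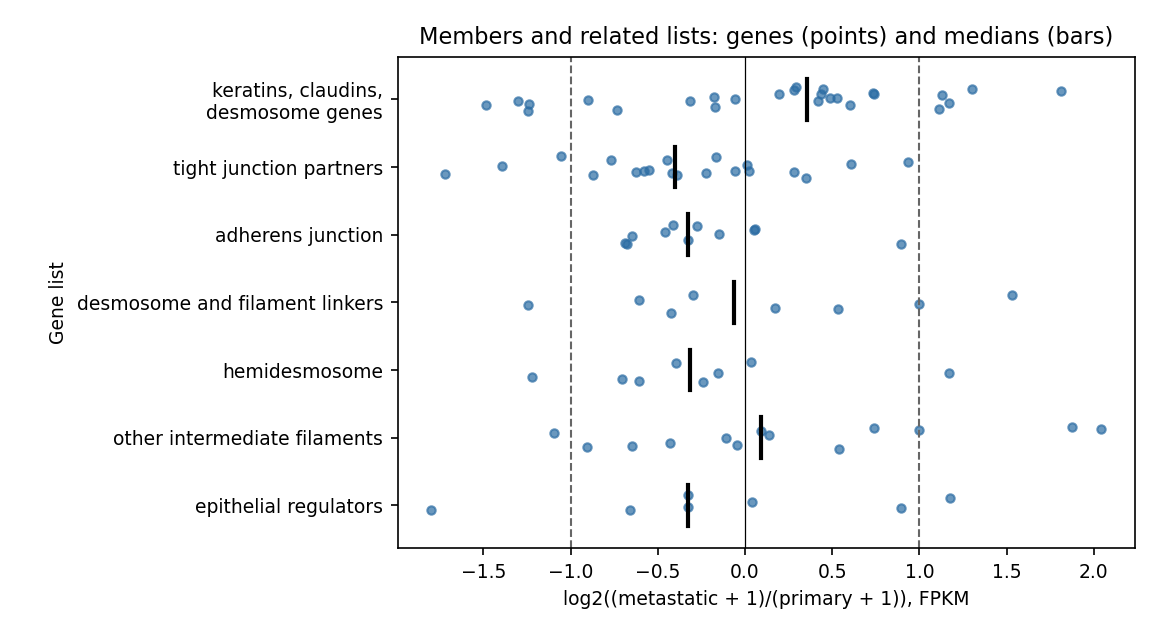
Log2 ratio of metastatic over primary for the expressed keratin, claudin, desmosome and EPCAM genes and for the expressed genes of 6 related lists, with 1 point per gene, a black bar at each median and dashed lines at 2-fold. The median of the 26 genes lies at 0.36 and those of tight junction partners and adherens junction genes at -0.40 and -0.33.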

How the data were processed

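The authors deposited FPKM values for 2 libraries as a table of 62573 rows. Cufflinks 2.2.1, STAR 2.7.6a, bcl2fastq 2.18.0.12 and the human build GRCh38 are named, per the submitters' processing notes, without their roles. Mouse is the organism on the labels, and how mouse reads were handled, the annotation and any filter are not stated in the sources used here. Rows with the same label were summed. A locus merging several symbols stood for a gene if every further symbol was a clone, a short RNA or an antisense RNA. An entry was called expressed at 1 FPKM in a library and higher or lower at 2-fold on the log2(FPKM + 1) scale. No test was run, since each group held 1 library. Every expressed member was named, with members under 1 FPKM named where they are partners or relatives of a named gene, and of each related list up to 6 genes with the largest log2 ratio. Regulators under 1 FPKM and genes of marker lists were picked after their values were seen. The members and lists were chosen with earlier results of these data known. MPP5 and LOR stood for PALS1 and loricrin. Mouse RefSeq symbols served only to pick protein-coding names. Python 3.11.15 with pandas 2.3.3 was used, and the procedure was tested on simulated data. Changes were simulated only in genes of higher level, so that test does not show how well changes in low genes are called. Alternatives were other pseudocounts, filters, scalings, a 4-fold threshold, no merged loci and the highest of rows with 1 label. Some genes that the naming rule takes are not reported here.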

Additional observations from a re-analysis of the deposited data

How the results depend on the processing

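With no replicates and no counts, a log2 ratio was taken as moved when it changed by more than 1.5-fold or crossed 2-fold. After rescaling to the same sum, KRT8 (0.96) left the 2-fold limit and DSP (-1.07) passed it, so 1 type II keratin was higher and 1 desmosome gene lower. With pseudocounts of 0.1 and 0.5 FPKM, CLDN2 came to 3.80 and 1.96 and KRT86 to -3.37 and -1.91, and with 0.1 KRT15 came to 3.17, KRT80 to 2.87 and CLDN22 to 1.01. A filter of 5 FPKM left 2 members higher, 0 type I and 1 type II keratin higher, 1 type II keratin lower, 1 claudin higher and 859 of all entries lower. A requirement of 1 FPKM in both libraries, chosen after seeing the data, gave 2 members, 0 type I keratins, 1 type II keratin and 1 claudin higher, 1 type II keratin lower and 771 of all entries lower. At 4-fold, 165 entries were higher and 259 lower, and of members, type I keratins, type II keratins and claudins 0 were higher and 0 lower. Without a filter the median of the endothelial markers was 0.0283 in place of -1.60, and with a filter of 5 FPKM that of the epithelial regulators was 0.29 in place of -0.32. No member changed sign past 2-fold under any alternative run. Scaling by the median ratio kept all 26 member values within these limits. Leaving out merged loci or taking the highest row could not change them, since each of the 26 stands alone on 1 row. No paired analysis was possible because each group held 1 library. Depth is unknown, so the error of values near 0 is unknown too. With 0.1 FPKM added, 2 hemidesmosome genes and 2 other intermediate filaments were lower and 2 epithelial regulators higher, in place of 1 each.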
